A study of Mus musculus with 40 samples.

Results

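Nr1h2 and Nr1h3 encode the liver X receptors LXRβ and LXRα, and the CpGs near their gene starts form 2 of the loci that were amplified from bisulfite-treated liver DNA and sequenced. Every CpG of the deposited table that lay at either gene was taken, which gave 36 of the 300 CpGs, 17 at Nr1h2 and 19 at Nr1h3. The DNA came from whole livers of C57BL/6J male mice killed at 9 weeks of age. The animals fall into 4 groups, named by the diet of the dam and then by the diet fed after weaning, where LF or L stands for low fat and HF or H for high fat. LL animals (n = 10) had LF dams and LF feed, HL animals (n = 9 with values) had HF dams and LF feed, LH animals (n = 10) had LF dams and HF feed, and HH animals (n = 10) had HF dams and HF feed. Of the 40 animals of the series 39 had values. The study divided the males of a cage between both post-weaning diets, so some animals were littermates, and the labels used here do not tie animals to dams. The p-values below treat each animal as independent. Both feeds drew most of their fat from coconut oil, and whole liver mixes hepatocytes with other cell types, whose shares cannot be told apart from changes within a cell type. The tables hold methylation only, so the liver label was not checked against marker genes.

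Liver X receptors are nuclear receptors that bind oxysterols, the oxidised forms of cholesterol, and act on DNA as heterodimers with retinoid X receptors. They switch on genes for cholesterol efflux and for fatty acid synthesis, among them Srebf1. LXRα is abundant in liver, gut, fat and macrophages, whereas LXRβ is made in most cell types. CpG-rich starts of such genes are usually free of methylation in tissues that express them.

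Both genes lie on the minus strand, and the positions and sequences here follow the plus strand of NCBIM37, the assembly also called mm9. CpGs are numbered from the lowest coordinate, so that the numbers run from inside the gene to its upstream side. The primers that the study gives for each locus are shown first. They match DNA in which bisulfite has turned unmethylated cytosine into uracil, read as T. Capitals mark the bases that stand for converted cytosines outside CpGs, as T in the forward primer and as its complement A in the reverse primer.
Nr1h2 forward primer: aaTttTagaagTTtgggagtagTt
Nr1h2 reverse primer: ttttctAaAtcccaAaAAAAa
Nr1h3 forward primer: aagaTtTttagTttTattaggTTTT
Nr1h3 reverse primer: ctAaAaaAcaAtccttctAtcaAaAcaa
The Nr1h2 primers span 233 bp, chr7:51809225-51809457, and all 17 CpGs of the locus lie between them. Of these, 8 lie in the 5′ UTR of a coding transcript and 9 upstream of the outermost coding start at position 51809319. The Nr1h3 primers span 213 bp, chr2:91035017-91035229, and only 10 of the 19 CpGs, Nr1h3_2 to Nr1h3_11, lie between them. Nr1h3_1 lies 6 bases before the forward primer, and Nr1h3_12 to Nr1h3_19 lie beyond the reverse primer, up to position 91035389. At Nr1h3 the first 14 CpGs lie in the 5′ UTR of at least 1 coding transcript. The other 5 lie upstream of the outermost coding start at position 91035308, in an intron of a longer non-coding transcript.

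The CpGs on which the results turn are printed with 12 bases on either side, CG in capitals.
Nr1h2_1 (chr7:51809237-51809262): ctgggagtagctCGaagcaacagcgc
Nr1h2_3 (chr7:51809259-51809284): gcgcttgctgagCGaaaagcaaaagt
Nr1h2_9 (chr7:51809315-51809340): gcgcgtcacttcCGgaagtaggcgga
Nr1h2_12 (chr7:51809350-51809375): gtgacagacttcCGgtctgccagggc
Nr1h3_4 (chr2:91035069-91035094): ctaactcctcccCGgccggccaccct
Nr1h3_7 (chr2:91035092-91035117): cctcttagccggCGccaccctgtccc
Nr1h3_8 (chr2:91035126-91035151): taccaaaactgtCGcgtttccccgca
Nr1h3_14 (chr2:91035288-91035313): aaagacacctcgCGgagcaaaggtcc
Nr1h3_19 (chr2:91035377-91035402): cctctgggaaggCGccaagctctccc
Nr1h2_1 is the first base after the forward primer. The Nr1h2 amplicon held 6 matches to CCGGAAG or its reverse complement CTTCCGG, a core of the motif bound by ETS factors, and they covered 5 CpGs, Nr1h2_5, Nr1h2_9, Nr1h2_12, Nr1h2_16 and Nr1h2_17. At Nr1h2_9 a match on each strand overlapped. Of 32851 RefSeq promoter windows of 300 bases (assembly GRCm38.p6), 8.86% held this motif at least once and 3 held it 6 times or more, the window of Nr1h2 among them. The Nr1h3 amplicon held none. The Nr1h2 CpGs inside a match had a mean level of 0.720%, against 0.673% for the other 12.

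The level of a CpG is the share of its reads that kept a cytosine, in percent, and an unconverted cytosine cannot be told apart from a methylated one. Nr1h2 was almost free of such reads. Averaged over its CpGs, the level was 0.687% ± 0.105 (SD, n = 39), the lowest animal having 0.479% and the highest 1.05%. The 17 CpG means lay between 0.498% at Nr1h2_15 and 0.875% at Nr1h2_2, a ratio of 1.76. Next to these were Nr1h2_9 (0.521%) and Nr1h2_4 (0.557%) at the low end, and Nr1h2_17 (0.869%) and Nr1h2_7 (0.808%) at the high end. No CpG had a mean above 1%, and none was more than 2 times the median CpG of the locus. The CpGs of the 5′ UTR averaged 0.715% and those upstream of the gene start 0.662%. Every one of the 663 values at Nr1h2 was above 0.

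Nr1h3 was higher and less even. The mean over its 12 CpGs with values in at least 36 animals was 1.58% ± 0.442 (SD, n = 37), between 0.882% and 2.54% per animal. Nr1h3_7 stood out with 4.07% ± 1.68 (SD, n = 38), which was 2.94 times the median CpG of all 19. Among the 12 tested CpGs it was above the median CpG of the same animal in 37 of 37 animals and the highest in 19 of them. Its lowest animal had 1.67%, its median was 3.98% and its highest animal, LH replicate 1, had 9.57% from 112 of 1170 reads (95% Wilson interval 8.02 to 11.4%, counting error only). Of the tested CpGs, Nr1h3_4 followed with 2.19% ± 1.74 and Nr1h3_6 with 1.89% ± 1.27. The lowest were Nr1h3_3 with 0.682% ± 0.470, Nr1h3_9 with 0.799% ± 0.565 and Nr1h3_11 with 0.832% ± 0.564 (SD, n = 38 each).

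The higher CpGs of Nr1h3 were neighbours. Nr1h3_4 to Nr1h3_7 lie within 23 bases of each other, and their mean was 2.48% ± 1.09, against 0.949% ± 0.291 for the other 6 CpGs between the primers (SD, n = 38). The 4 CpGs were higher than those 6 in 36 of 38 animals. Because the block was picked for its level, these values are a description. The same 4 CpGs had 2.00 times the reads of Nr1h3_2 and Nr1h3_3. Their medians were 709 to 710 reads, against 617 to 620 at Nr1h3_8 to Nr1h3_11. Whether the level depends on how the CpGs were read was not tested. Across animals, with group means removed, Nr1h3_5 and Nr1h3_7 had the highest correlation of the locus (r = 0.66, description only). The median over the 45 pairs of CpGs between the Nr1h3 primers was 0.079, and that over the 136 pairs of Nr1h2 was -0.0063. Single pairs reached from -0.39 to 0.44 at Nr1h2 and from -0.41 to 0.66 between the Nr1h3 primers, and the points share the library and its depth.

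**Figure D1:**
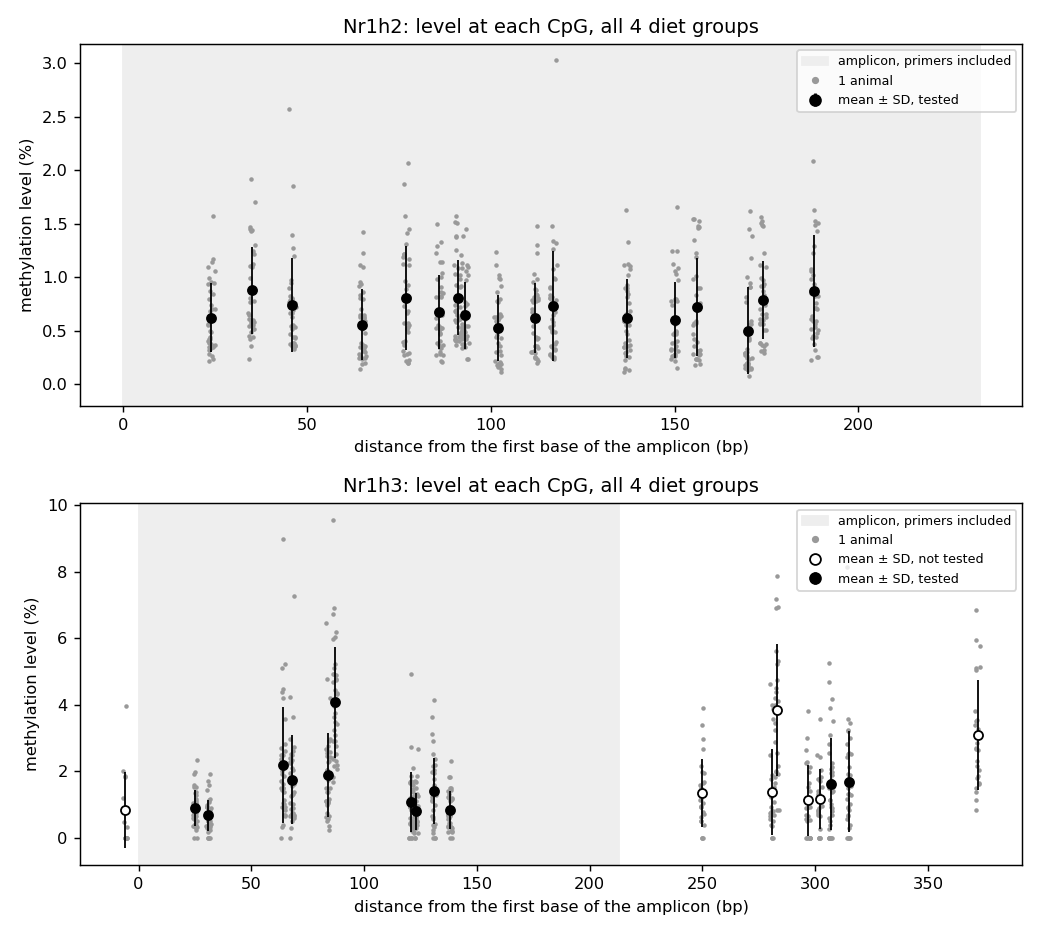
Methylation level in percent at each CpG of Nr1h2 (top) and Nr1h3 (bottom) against its distance in bp from the first base of the amplicon. Grey points are animals, black circles with bars are means ± SD, open circles are CpGs not tested, and the shaded part is the amplicon. Nr1h2 CpG means stay between 0.498% and 0.875%, whereas Nr1h3_7 reaches 4.07%.

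Outside the primers of Nr1h3 the table held 9 CpGs with a value in part of the animals. Nr1h3_17 (1.61% ± 1.38) and Nr1h3_18 (1.69% ± 1.52) had one in 37 animals and passed the filter. Nr1h3_12 to Nr1h3_16 and Nr1h3_19 had values in the same 26 animals, and Nr1h3_1 in 15. Of the 7 that did not pass, Nr1h3_14 had 3.85% ± 1.99 and Nr1h3_19 had 3.10% ± 1.65 (SD, n = 26), next in level to Nr1h3_7. The other 5 were Nr1h3_1 with 0.837%, Nr1h3_15 with 1.13%, Nr1h3_16 with 1.16%, Nr1h3_12 with 1.35% and Nr1h3_13 with 1.39%. Among all loci with a primer pair, Nr1h3 alone had tested CpGs outside its primers. Where those reads came from was not tested. Nr1h3_7 and Nr1h3_19 both lie in the letters GGCGCC, which 11.9% of the promoter windows hold, but Nr1h3_14 does not, and Nr1h2_13, which does, had 0.597%. This motif was looked at after the levels were seen.

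Read depth differed between both loci and along each of them. Median reads per animal ran from 7059 to 14176 over the CpGs of Nr1h2, from 355.5 to 710 over those between the Nr1h3 primers and from 154 to 262 over those outside. No value in the table rests on fewer than 100 reads. Nr1h2_6 to Nr1h2_12 had 2.00 times the reads of the other Nr1h2 CpGs in every animal (range 1.999 to 2.001), and Nr1h3_4 to Nr1h3_7 had 2.00 times those of Nr1h3_2 and Nr1h3_3 (range 1.99 to 2.00). Whether these CpGs were read from both ends of a fragment was not tested. Reads without molecular identifiers are not independent molecules, so that intervals from reads cover counting error only. Where a fragment was counted 2 times, they would be too narrow even for that. Nr1h3_7 is among the CpGs with 2.00 times the reads. The variance between animals was 11.4 to 48.1 times that of binomial counting at the Nr1h2 CpGs, and 1.22 to 10.5 times at the tested CpGs of Nr1h3. At Nr1h2_6 to Nr1h2_12, with 2.00 times the reads, the ratio was 20.4 to 48.1, and at the other Nr1h2 CpGs 11.4 to 22.2. Counting a fragment 2 times would raise the read numbers and this ratio, and neither was corrected for it. At Nr1h3 55 values were 0, which allows levels of up to 0.358% to 3% depending on the reads.

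**Figure D2:**
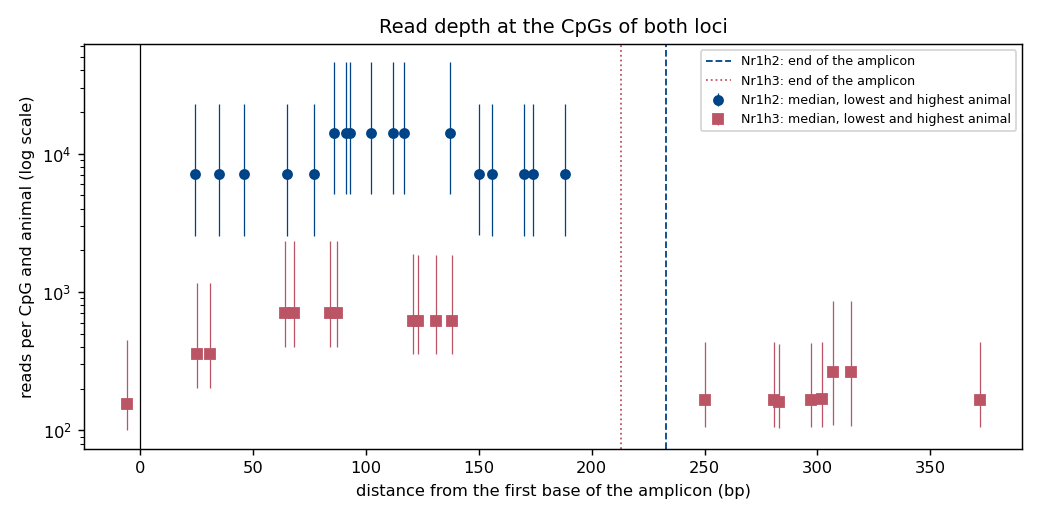
Reads per CpG and animal, on a log scale, against distance in bp from the first base of the amplicon. Symbols are medians over animals and bars reach from the lowest to the highest animal. Nr1h2 has medians of 7059 to 14176, with a step between its CpGs 5 and 6 and its CpGs 12 and 13, while the Nr1h3 CpGs outside the primers have medians of 154 to 262.

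The 2 receptors were set against each other and against the loci next to them in level. Those neighbours were picked by the same levels, which set the direction of each difference beforehand. Their differences and p-values are therefore a description. Nr1h3 was 0.896 points higher than Nr1h2 (SD 0.464), and higher in 37 of 37 animals (paired sign-flip permutation test with 100000 resamples, 2-sided p 2e-05, the smallest it can give, adjusted p 4e-05 over 4 comparisons). In 33 of 37 animals Nr1h3 was above the highest Nr1h2 value of any animal. The 8 lowest of the 19 loci tested had means between 0.687% and 0.881%, and Nr1h2 had the lowest of all. It did not differ beyond the spread from the next one, Srebf2, a regulator of cholesterol synthesis (difference of -0.00963 points, SD 0.154, p 0.708, adjusted p 0.944, n = 39). Nr1h3 was the 10th of 19 and the highest of the 10 loci under 2%. The next locus above it, Lepr, was higher by 5.12 points in all 37 animals. Against Ebp, the next below, the difference was 0.273 points (p 0.947, adjusted p 0.947), though Nr1h3 was higher in 34 of 36 animals. HH replicate 1 had 20.8% at Ebp, and without it the difference was 0.828 points (p 2e-05).

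Whether diet moved the locus means was asked in 4 comparisons, 2 for the maternal diet and 2 for the post-weaning diet, and none passed an adjusted threshold of 0.05. Nr1h2 had a median of 0.624% in LL (0.516 to 0.787%), 0.705% in HL (0.638 to 1.05%), 0.669% in LH (0.479 to 0.785%) and 0.699% in HH (0.565 to 0.874%). The 4 groups overlapped. The largest of its differences was that of HL over LL, 0.0939 points (95% interval -0.00772 to 0.200), with 9 of 9 HL animals above the LL median (exact permutation p 0.0713, adjusted p 0.447). It rested in part on HL replicate 8. Without that animal it was 0.0560 points (exact permutation p 0.150), while leaving out any 1 other animal gave up to 0.109 points, and 4 of the 19 such settings had an exact permutation p under 0.05 (lowest 0.0309). With limma the p was 0.0175 (adjusted p 0.111), with pooled reads 0.0206 by exact permutation (adjusted p 0.131) and after subtraction of the library's background 0.0395 by exact permutation (adjusted p 0.250). The unadjusted share of locus means under 0.05 in this comparison was 10.5% of 19 loci.

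Nr1h3 means had medians of 1.44% in LL (1.07 to 2.25%), 1.36% in HL (1.21 to 1.97%), 1.73% in LH (0.954 to 2.53%) and 1.41% in HH (0.882 to 2.54%). Every group held animals below 1.3% and above 1.9%. The differences were -0.113 points for HL minus LL (-0.504 to 0.276), -0.177 for HH minus LH (-0.679 to 0.335), 0.0860 for LH minus LL (-0.403 to 0.575) and 0.0228 for HH minus HL (-0.367 to 0.424). Those of Nr1h2 were 0.0379 points for HH minus LH (-0.0523 to 0.129), 0.0105 for LH minus LL (-0.0761 to 0.0965) and -0.0455 for HH minus HL (-0.155 to 0.0611). Each bracket is a 95% interval from inversion of the exact permutation test. In the 3 comparisons other than HL with LL, adjusted p-values of both loci were 0.708 or more, beside shares of 0, 5.26 and 15.8% of locus means under an unadjusted 0.05. Within runs of neighbouring animal numbers, LH minus LL was -0.0148 points at Nr1h2 (exact permutation p 0.780, 10 animals in 2 runs) and 0.250 at Nr1h3 (p 0.367, exact). HH minus HL was -0.0685 points at Nr1h2 (exact permutation p 0.463, 12 animals in 3 runs) and 0.114 at Nr1h3 (p 0.825, exact).

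**Figure D3:**
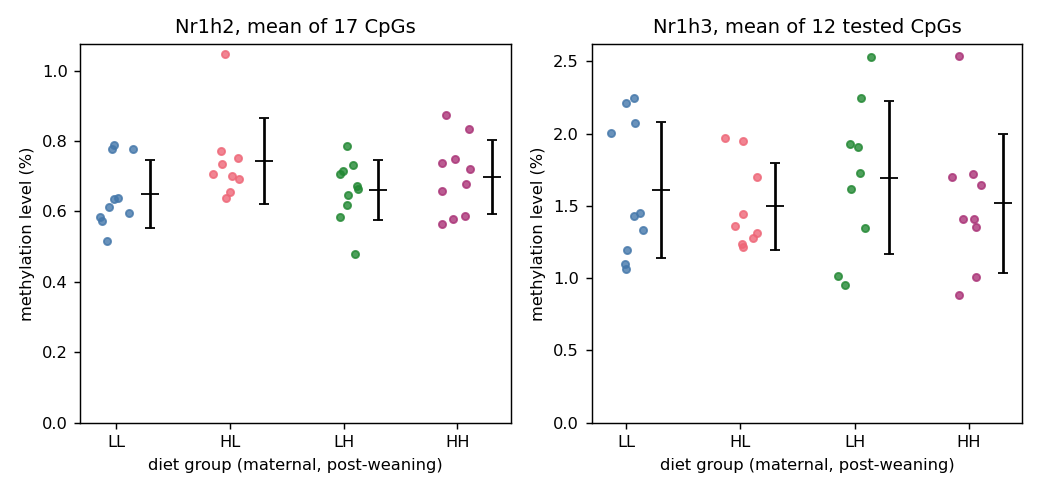
Mean methylation level in percent of Nr1h2 (17 CpGs, left) and Nr1h3 (12 tested CpGs, right) for each animal by diet group, with mean ± SD beside the points. The groups overlap at both loci, and HL replicate 8 lies at 1.05% for Nr1h2.

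Single CpGs were then compared for the maternal diet. In LF-fed offspring (HL against LL) 0 of 29 tested CpGs passed the adjusted threshold, while 3 had an unadjusted p under 0.05, beside 14.6% of all 253 CpGs tested. Of the 3, 2 were higher in HL (3.56% of all CpGs at the same unadjusted 0.05) and 1 was lower (11.1%). Nr1h2_9 had a median of 0.242% in LL (0.165 to 0.797%) and of 0.864% in HL (0.189 to 1.23%). It was 0.461 points higher in HL (0.188 to 0.731), with 8 of 9 HL animals above the LL median (exact permutation p 0.00351, adjusted p 0.111). Nr1h3_8 had a median of 1.35% in LL (0.496 to 2.10%) and of 0.444% in HL (0 to 1.58%). It was lower by 0.638 points in HL (interval of the difference -1.14 to -0.126), and 8 of 9 HL animals lay below the LL median (exact permutation p 0.0181, adjusted p 0.192). Nr1h2_1 was higher by 0.236 points (0.0379 to 0.431; exact permutation p 0.0229, adjusted p 0.222). Its values lay between 0.232 and 0.702% in LL and between 0.285 and 0.957% in HL. Groups overlapped at each of the 3 CpGs. Over the locus 12 of 17 Nr1h2 CpGs and 6 of 12 Nr1h3 CpGs were higher in HL, beside 109 of all 253 tested CpGs. Their median differences were 0.0656 and -0.0619 points, the median over all tested CpGs being -0.0367. CpGs of a locus come from the same animals and libraries, so they are not independent observations.

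In HF-fed offspring (HH against LH) 0 of 29 CpGs passed, and 1 had an unadjusted p under 0.05, beside 2.77% of all CpGs tested. This was Nr1h2_2, with a median of 1.17% in HH (0.420 to 1.92%) and of 0.770% in LH (0.236 to 1.44%), 0.410 points apart (p 0.0493, exact permutation p 0.0505, adjusted p 0.859). The interval of the exact permutation test, -0.000938 to 0.820, included 0. Nr1h2_9 was 0.183 points higher in HH (-0.0482 to 0.408) and Nr1h3_8 lower by 0.946 points in HH (interval of the difference -1.97 to 0.0139). These share a sign with the differences between HL and LL at the same CpGs, but both intervals included 0. Nr1h2_1, also under an unadjusted 0.05 in HL against LL, had the opposite sign. Its difference was 0.236 points for HL minus LL and -0.216 points for HH minus LH (-0.555 to 0.121). These CpGs were picked by their p in HL against LL, so the comparison of signs is a description.

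Among sons of LF dams, the feed after weaning was compared as LH against LL. Here 0 of 29 CpGs passed and 3 had an unadjusted p under 0.05, beside 7.91% of all CpGs tested. Of the 3, 2 were higher in LH (5.14% of all CpGs at the same unadjusted 0.05) and 1 was lower (2.77%). Nr1h2_1 lay between 0.267 and 1.57% in LH, with a median of 0.869%, whereas 9 of the 10 LL animals were under 0.43% and the median was 0.369%. LH was higher by 0.442 points (0.175 to 0.711), and 9 of 10 LH animals were above the LL median (p 0.00303, exact permutation p 0.00237, adjusted p 0.525). The 10 animals in runs of neighbouring numbers gave 0.462 points, with an exact permutation p of 0.1, where 0.02 was the lowest attainable. The LL animals are the same in this comparison and in that of HL with LL. Nr1h2_3 was lower in LH by 0.354 points, with medians of 0.384% and 0.682% (interval of the difference -0.707 to -0.00562; p 0.0494, exact permutation p 0.0457, adjusted p 0.625). Nr1h3_2 was higher in LH by 0.476 points, with medians of 1.12% and 0.707% (0.00714 to 0.943; exact permutation p 0.0471, adjusted p 0.625).

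Among sons of HF dams (HH against HL), 0 of 29 CpGs passed and 3 had an unadjusted p under 0.05, beside 12.6% of all CpGs tested. All 3 were lower in HH. Of all CpGs tested, 1.58% were lower in HH with an unadjusted p under 0.05, and 11.1% were higher with such a p. Nr1h2_12 had a median of 0.358% in HH (0.112 to 0.897%) and of 0.923% in HL (0.147 to 1.12%). It was lower by 0.426 points in HH (interval of the difference -0.722 to -0.125), and all 10 HH animals lay below the HL median (exact permutation p 0.0101, adjusted p 0.296). Nr1h2_3 was lower by 0.382 points (interval -0.790 to -0.0333; exact permutation p 0.0251, adjusted p 0.360). Here HL replicate 8 had 2.57% and the next HL animal 0.968%, and without that animal the difference was -0.188 points (exact permutation p 0.0530). Nr1h3_4 had a median of 1.47% in HH (0 to 2.50%) and of 2.51% in HL (0.334 to 5.23%), a difference of -1.02 points (-2.07 to -0.0161; exact permutation p 0.0462, adjusted p 0.377). Without HL replicate 10 it was -0.658 points (exact permutation p 0.0976). Within runs of animal numbers Nr1h2_12 differed by -0.285 points (exact permutation p 0.0125, the smallest possible), Nr1h2_3 by -0.764 (p 0.125) and Nr1h3_4 by -0.496 (p 0.313). At all CpGs that were named in either post-weaning comparison the groups overlapped. By Wilcoxon's test 2, 0, 3 and 3 of the 29 CpGs had an unadjusted p under 0.05 in the 4 comparisons (HL with LL, HH with LH, LH with LL, HH with HL), beside 11.5, 1.98, 6.32 and 9.88% of all CpGs. By limma these were 2, 2, 3 and 2, beside 11.9, 3.56, 6.32 and 10.3%. After adjustment 0 of the 29 passed by either.

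**Figure D4:**
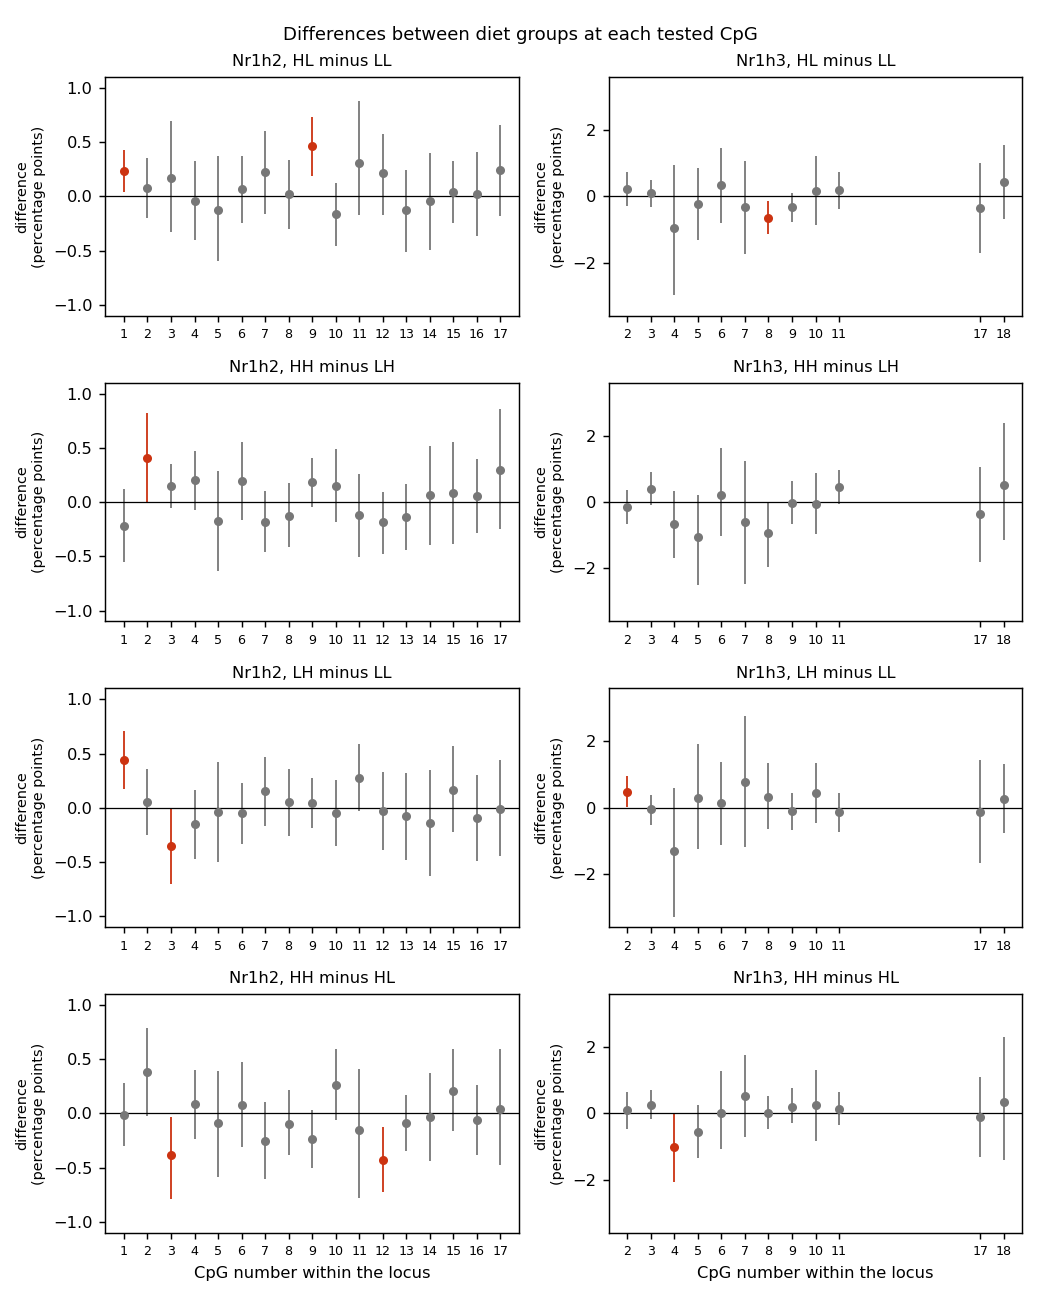
Differences in percentage points between diet groups at each tested CpG, with 95% intervals from inversion of the exact permutation test, for Nr1h2 (left) and Nr1h3 (right) in the 4 comparisons. Red marks an unadjusted p under 0.05, and none passed after adjustment. The vertical scale of Nr1h3 is wider, its median interval being 2.04 points wide against 0.690 at Nr1h2.

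Terms over all 4 groups gave the same outcome, with 0 of 29 CpGs past the adjusted threshold in each. For the maternal term, 3 CpGs had an unadjusted p under 0.05 (12.6% of all CpGs tested). Nr1h3_8 had 0.681% ± 0.491 in offspring of HF dams and 1.46% ± 1.06 in those of LF dams (SD, n = 19 each), and 2 of 19 of the former lay above the median of the latter (p 0.00200, adjusted p 0.222). Nr1h2_9 and Nr1h2_2 were the others, higher by 0.322 and 0.243 points with HF dams (adjusted p 0.177 and 0.388). For the post-weaning term there were also 3 (11.1% of all CpGs tested). Nr1h2_3 had 0.562% ± 0.223 in HF-fed animals (n = 20) and 0.926% ± 0.533 in LF-fed ones (n = 19), with a term of -0.368 points (p 0.00244, adjusted p 0.154). Nr1h3_4 had 1.59% ± 1.06 in HF-fed and 2.80% ± 2.08 in LF-fed animals (n = 19 each, p 0.0266, adjusted p 0.408). Nr1h2_1 was 0.216 points higher in HF-fed animals (adjusted p 0.413). In this term 3 of the 253 CpGs (1.19%) passed after adjustment, none of them at Nr1h2 or Nr1h3. Whether the maternal difference depended on the post-weaning diet was tested directly. Here 1 CpG had an unadjusted p under 0.05 (7.91% of all CpGs tested), Nr1h2_1, at -0.452 points (p 0.0191, adjusted p 0.543). These are permutation tests with 100000 resamples.

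The CpG that stood highest, Nr1h3_7, showed no difference that passed in any of the 7 tests. Its medians were 3.58% in LL (1.83 to 6.74%), 3.64% in HL (1.67 to 4.93%), 4.31% in LH (2.16 to 9.57%) and 4.17% in HH (2.18 to 6.04%). The groups overlapped over most of their range. The intervals of its differences were -1.75 to 1.07 points for HL minus LL, -2.46 to 1.24 for HH minus LH, -1.18 to 2.77 for LH minus LL and -0.715 to 1.76 for HH minus HL, and each included 0. At the Nr1h2 CpGs no interval went below -0.790 or above 0.883 points in any of the 4 comparisons.

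**Figure D5:**
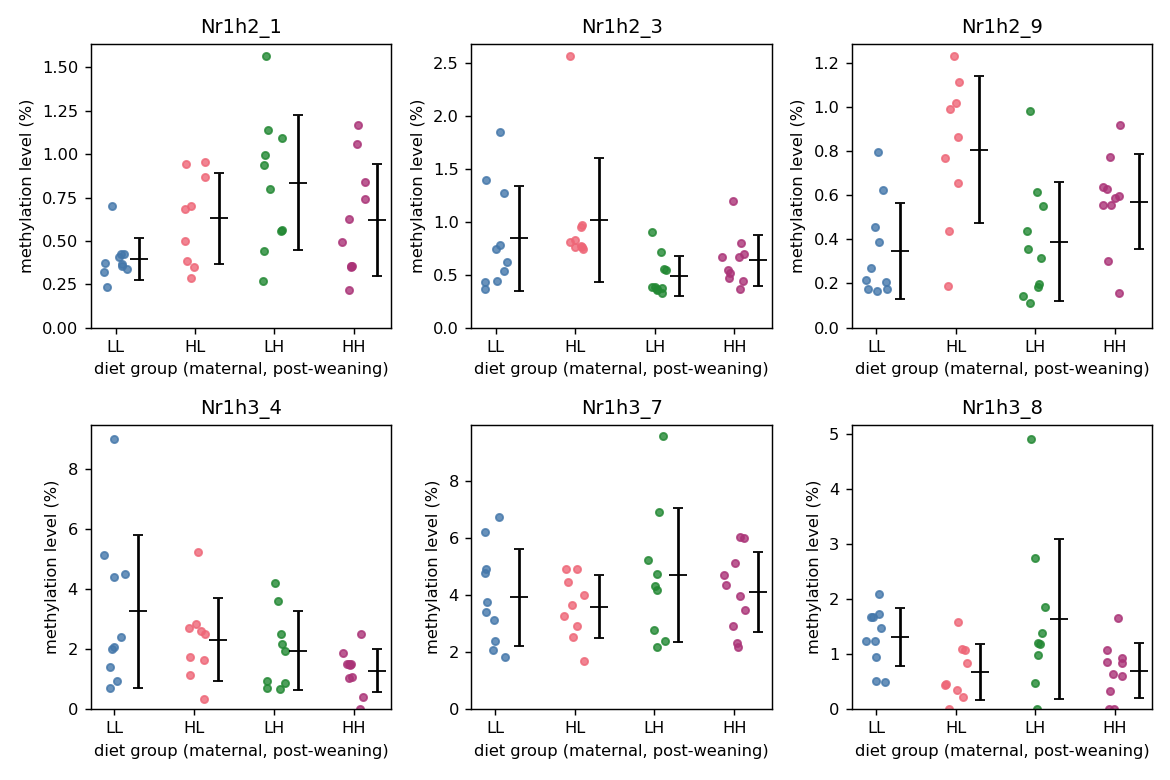
Methylation level in percent at Nr1h2_1, Nr1h2_3, Nr1h2_9, Nr1h3_4, Nr1h3_7 and Nr1h3_8 for each animal by diet group, with mean ± SD beside the points and a separate vertical scale for each CpG. All groups overlap, LL animals cluster at Nr1h2_1, and HL replicate 8 lies apart at Nr1h2_3 with 2.57%.

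Other genes of the pathway were examined by counts, to be read against 14.6% (HL with LL), 2.77% (HH with LH), 7.91% (LH with LL) and 12.6% (HH with HL) of all CpGs under the same unadjusted 0.05. At the retinoid X receptors Rxra and Rxrg, the partners of both liver X receptors, 0 and 1 of 24 CpGs had an unadjusted p under 0.05 in the maternal comparisons (HL with LL, HH with LH), and 0 and 1 in the post-weaning ones (LH with LL, HH with HL). At Srebf1, a target gene of the receptors, the counts were 1 and 3 of 22 CpGs for the maternal and 0 and 0 for the post-weaning comparisons. At the sterol genes Srebf2, Insig2 and Ebp they were 3 and 0, then 5 and 2, of 49 CpGs. At Nr1i2 and Nr1i3, nuclear receptors that also pair with retinoid X receptors, they were 0 of 9 CpGs in each comparison, and Pparg had no tested CpG. No CpG of these lists passed after adjustment in a comparison of 2 groups.

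Relations across animals were computed on values centred on the group mean, 3 in all. Nr1h2 and Nr1h3 did not vary together (r = -0.053, permutation p 0.760, rho = -0.047, p 0.774, adjusted p 0.760 and 0.893, n = 37). The mean over the other 8 loci under 2% was taken as the library's background, though methylated and unconverted cytosines cannot be told apart in it. It had an r of 0.12 with Nr1h2 (permutation p 0.412, adjusted p 0.760, n = 39) and of 0.047 with Nr1h3 (p 0.741, adjusted p 0.760, n = 37). Without the 2 animals farthest from the median these were 0.14 and -0.11, and that of Nr1h2 with Nr1h3 was -0.014. Spearman's rho with the background was 0.21 at Nr1h2 (permutation p 0.0762, adjusted p 0.229) and 0.017 at Nr1h3 (p 0.893). With Ebp left out, a choice made after seeing HH replicate 1, Nr1h2 had r = 0.38 (permutation p 0.0121, rho = 0.39, p 0.0141) and r = 0.37 without the 2 farthest animals, whereas Nr1h3 had r = 0.0070 (p 0.970). Within groups the Nr1h2 values were 0.18 in LL, 0.48 in HL, 0.32 in LH and 0.81 in HH.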

How the data were processed

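Liver DNA of 39 animals was analysed, as methylated and total read counts per CpG. The authors treated DNA with bisulfite, amplified the loci by PCR, sequenced the pooled barcoded products and called methylation with Bismark on mm9 (submitters' processing notes, no version given); the deposited counts are raw. The deposited fraction table equals the ratio of these counts within 5e-16 over 11071 values, and only counts were used further. Sums of reads over CpGs ran from 1530126 to 15531697 per animal. CpGs within 1000 bp formed a locus. A CpG was tested where 36 animals or more had 10 reads or more (253 of 300, 29 of 36 here), and the mean over tested CpGs is the locus mean. Groups of 10 against 10 were compared by Student's t-test, all others by exact permutation of the difference in means, 2-sided, with Benjamini-Hochberg adjustment over all CpGs or all loci of a comparison. Terms were tested by permutation with 100000 resamples. Python 3.11.15, scipy 1.17.1, limma 3.58.1 and R 4.3.3 were used, and the tests were checked on simulated data. Named CpGs were the 3 highest and lowest of a locus, those over 2 times its median CpG, that with the smallest p in each of 7 tests, those under 0.05 in 2 or more, and all untested ones. CpGs and lists were chosen with earlier results of these data known. 1 HL animal without values was not analysed here.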

Additional observations from a re-analysis of the deposited data

Results flagged for a closer look

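In each group of 9 or 10 animals the highest and lowest animal were compared with their neighbour, for both locus means and the named tested CpGs. Of 76 such groups 11 held an animal whose gap was past Dixon's 95% value, all at the high end. That value flags about 1 in 20 groups only where values are independent and normal. Percentages near 0 need not be normal, and the items overlap, as the Nr1h2 locus mean contains Nr1h2_3. The count is therefore not read as an excess over chance. HL replicate 8 was apart both at the Nr1h2 locus mean (1.05%, next 0.771%) and at Nr1h2_3 (2.57%, next 0.968%). It also had 3.03% at Nr1h2_11, and over the other 15 Nr1h2 CpGs it had 0.813%, against 0.706% ± 0.0493 (SD, n = 8) in the rest of its group. Its median of 3240 reads was the 2nd lowest of the animals at this locus.

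The other Nr1h2 values were Nr1h2_1 in LL replicate 5 (0.702%, next 0.425%), Nr1h2_3 in HH replicate 4 (1.20%), and Nr1h2_17 in LH replicate 4 (2.08%) and in HH replicate 7 (2.64%). At Nr1h3 they were Nr1h3_2 in HL replicate 4 (2.33%), Nr1h3_4 in LL replicate 9 (9.00%, from 62 of 689 reads), Nr1h3_6 in HH replicate 5 (6.47%, from 26 of 402 reads), Nr1h3_9 in HH replicate 3 (2.69%) and Nr1h3_11 in LL replicate 8 (2.32%).

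All 7 Nr1h3 CpGs that failed the 36-animal filter had levels above what a count of 0 allows (at most 0.104% over all animals). They entered none of the main comparisons. Their means were 0.837% at Nr1h3_1, 1.35% at Nr1h3_12, 1.39% at Nr1h3_13, 3.85% at Nr1h3_14, 1.13% at Nr1h3_15, 1.16% at Nr1h3_16 and 3.10% at Nr1h3_19. The rule asks only for more than 3 methylated reads over all animals. Nr1h3_1 lay between the locus means of Nr1h2 (0.687%) and Rxra (0.881%), which are among the lowest.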

How the results depend on the processing

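No Nr1h2 or Nr1h3 CpG passed the adjusted threshold under any alternative, which were Wilcoxon's test, exact permutation throughout, limma on log2 read ratios, coverage minimums of 1, 100 and 1000 reads, values in all animals or in at least 5 of each group, subtraction of the library's background, adjustment over 4 comparisons, runs of animal numbers, and leaving out each animal. The smallest adjusted p was 0.0520 without 1 animal (HL against LL without HL replicate 7, and HH against HL without HH replicate 4) and otherwise 0.0552, in limma for HL against LL at Nr1h2_9. Minimums of 1 and 100 reads changed nothing, since no value rests on fewer than 100 reads, and Nr1h3 could not be tested at 1000 reads or in all animals. Some differences of locus means changed sign. HL minus LL at Nr1h3 became 0.0238 on the log2 scale in limma. HH minus HL at Nr1h3 became -0.0314 in limma (log2), -0.0743 points with values in 5 animals of each group, -0.271 after background subtraction, -0.0185 with pooled reads and -0.00741 over the CpGs between the primers. That background held Ebp, which averaged 2.80% in HH, where HH replicate 1 had 20.8%, and 0.742% in HL. HH minus LH at Nr1h2 became -0.208 after background subtraction, and 0.0367 with Ebp kept out of the background, and LH minus LL at Nr1h2 -0.0148 within runs. Without 1 animal, LH minus LL ranged from -0.00437 to 0.0307 at Nr1h2 (below 0 without LL replicate 2 or LH replicate 10) and from -0.0179 to 0.179 at Nr1h3 (below 0 without LH replicate 7). HH minus HL at Nr1h3 ranged from -0.104 to 0.102, below 0 without HL replicate 3, 6, 7 or 9 or HH replicate 5 or 9. Other locus means kept their sign without 1 animal. HL minus LL ranged from 0.0560 to 0.109 at Nr1h2 and from -0.174 to -0.0426 (without LL replicate 8) at Nr1h3. HH minus LH ranged from 0.0177 (without LH replicate 3) to 0.0527 at Nr1h2 and from -0.304 (without HH replicate 5) to -0.0727 (without LH replicate 7) at Nr1h3. HH minus HL at Nr1h2 ranged from -0.0650 to -0.00756 (without HL replicate 8). Background subtraction raised the unadjusted p above 0.05 for 5 CpG values, namely the maternal terms of Nr1h2_9 (0.210 points, permutation p 0.173) and Nr1h2_2 (0.131, p 0.592), the post-weaning term of Nr1h2_1 (0.0721, p 0.768), Nr1h2_2 in HH against LH (0.164, p 0.676) and Nr1h2_3 in LH against LL (-0.363, p 0.0726). With Ebp kept out, the last 2 were 0.409 (p 0.0565) and -0.352 (p 0.0866), and terms were not run. Without HH replicate 1, Nr1h3 minus Ebp was 0.828. The cause was not tested. The settings over the CpGs between the primers, without Ebp and without HH replicate 1 for the level comparison were chosen after seeing the data. No paired analysis was possible because the replicate numbers used here only name animals in the order of the series, and the labels give neither dam nor cage. Runs of animal numbers were used as a block in their place.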
